A study of Mus musculus and Homo sapiens with 22 samples.

Results

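Chromatin-associated and cytoplasmic RNA of living mouse embryonic stem (mES) cells were compared transcript by transcript with icSHAPE, a chemical probe of RNA structure. The comparison was held to transcripts with at least 100 nucleotides scored in both in vivo files. Of 6395 transcripts listed in both files, 1530 met this rule, 1334 shared between 1 and 99 scored nucleotides and 3531 shared none. The mES files as a whole listed 17092 transcripts, and the 12 icSHAPE files of the series, which also cover the human cell line HEK293, listed 43971.

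The cells were V6.5, a mouse embryonic stem cell line grown on gelatin with serum and leukaemia inhibitory factor. For the in vivo files, living cells took up the probe NAI-N3 for 5 min at 37 °C and were then separated into chromatin, nucleoplasm and cytoplasm. For the in vitro files, RNA was purified from each fraction, denatured, refolded in buffer with magnesium and probed for 5 min at 37 °C; these files serve here as the background for the same nucleotides. No genotype change or other treatment is named for these cells, and 1 file stood on each side of every comparison.

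NAI-N3 acylates the 2′-hydroxyl of nucleotides whose sugar is free to move, and reverse transcriptase stops at the adduct, so a high score marks a flexible, usually unpaired nucleotide and a low score a paired or otherwise held one. The chromatin fraction is known to hold nascent transcripts still attached to RNA polymerase, unspliced introns, chromatin-bound long noncoding RNA and small nuclear RNA. The cytoplasm holds processed, exported mRNA, most of it engaged with ribosomes and RNA-binding proteins.

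With 1 file in each group there was no replicate check, and no p-value or standard error is given. Intervals are 95% intervals over transcripts, exact (Clopper-Pearson) for a share and from order statistics for a median. They cover counting only, and they are too narrow because transcripts of a gene share sequence. The files name transcripts by Ensembl identifier and do not pair them with genes, so no gene, pathway or marker of either fraction could be read and the purity of the fractions was not tested. No transcript sequence was read for the same reason.

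The chromatin file was much sparser than the cytoplasm file. It listed 11667 transcripts, of which 5704 (48.9%) carried no score at all and 3303 had at least 100 scored nucleotides, against 9443 of 10568 in cytoplasm. Scored nucleotides numbered 2431066 in chromatin and 10108000 in cytoplasm. Among the 1530 transcripts the chromatin file scored a median of 34.9% of the length (1.18% to 99.4%) and the cytoplasm file 84.2%. They shared 1164550 scored nucleotides, with a median of 352.5 per transcript and a range of 100 to 12617. Lengths ran from 136 to 14579 nt. The labels state a target depth per replicate, but the reads behind each file are unknown here.

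Most of the 1530 transcripts were listed at a higher abundance in cytoplasm, while most of the short ones were higher in chromatin. Abundance is the authors' signal per transcript, in a unit that neither the labels nor the headers give, so a ratio sets the shares of 2 files against each other and not amounts per cell. The median log2 ratio of chromatin over cytoplasm, after 1 was added to each value, was -0.93 (-1.01 to -0.83), beside -1.25 for all 6395 transcripts listed in both files. At least 2-fold more abundant in chromatin were 193 of the 1530 (12.6%), where 9.68% of all 6395 were. At least 2-fold more abundant in cytoplasm were 734 (48.0%), where 59.3% of all 6395 were. Since the rule asks for coverage in both files, it bears on abundance and these shares are a description.

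Length ordered the ratio. The shortest class, under 300 nt, had a median of 3.26 on the log2 scale (n = 76), and 63 of its transcripts were at least 2-fold higher in chromatin. From 300 to under 1000 nt the median was -2.13 (n = 439), the lowest of the 5 length classes. It then rose to -1.57 from 1000 to under 2000 nt (n = 276), to -0.65 from 2000 to under 5000 nt (n = 566) and to -0.25 at 5000 nt and over (n = 173). In the median, the files thus listed the longest transcripts at the most similar abundance, and the cytoplasm file led most from 300 to under 1000 nt. These are shares of each file and do not give placement in the cell. Transcripts listed in both files that did not meet the rule showed the same order, with medians of 2.64, -1.74, -1.66, -1.10 and -0.71.

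Nearly every chromatin-rich transcript of at least 1000 nt listed in both files met the rule. Among transcripts that did not meet it, 26 of those between 300 and 1000 nt were at least 2-fold higher in chromatin. In the 3 longer classes the numbers were 0, 1 and 0. Among the 1530 they were 49 from 300 to under 1000 nt, 25 from 1000 to under 2000 nt, 45 from 2000 to under 5000 nt and 11 at 5000 nt and over. Because the rule asks for scored nucleotides in chromatin, this split describes the choice of transcripts and is not a result.

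**Figure D1:**
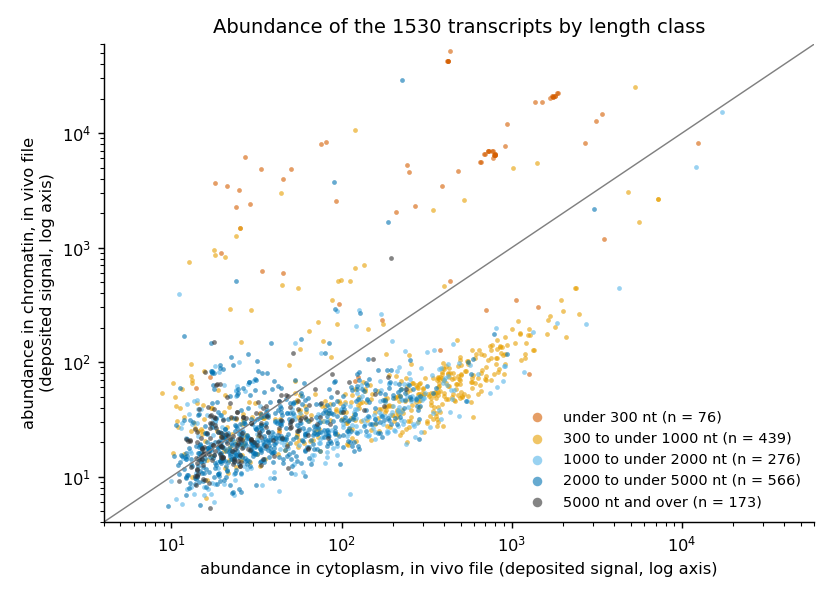
Abundance of each of the 1530 transcripts in the chromatin file against the cytoplasm file, both on log axes, coloured by length class, with the line of equal values. Most points lie below the line, and 63 of the 76 transcripts under 300 nt are at least 2-fold above it.

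The transcript with the highest ratio, ENSMUST00000083888, is 148 nt long and was listed at 6162.6 in chromatin, 808.7 in nucleoplasm and 27.2 in cytoplasm, a log2 ratio of 7.77. The next, ENSMUST00000158917 (144 nt), was listed at 3646.8 in chromatin, 207.6 in nucleoplasm and 18.0 in cytoplasm, a log2 ratio of 7.58. Both fell step by step from chromatin through nucleoplasm to cytoplasm. At the other end, ENSMUST00000192045 (490 nt) was listed at 32.8 in chromatin, 220.8 in nucleoplasm and 593 in cytoplasm, a log2 ratio of -4.13. ENSMUST00000196997 (241 nt) was listed at 78.8, 410.2 and 1261 in the same order, a log2 ratio of -3.98, and is one of only 6 transcripts under 300 nt that were at least 2-fold higher in cytoplasm. Beside these wide ratios the score differences varied in size and direction. The mean scores over shared nucleotides were 0.137 in chromatin and 0.179 in cytoplasm for ENSMUST00000083888, and 0.181 and 0.151 for ENSMUST00000158917. They were 0.193 and 0.200 for ENSMUST00000192045, and 0.173 and 0.268 for ENSMUST00000196997.

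The in vitro files come from other libraries and gave a similar order of abundance, with a wider spread between fractions. For the 937 transcripts with at least 100 nucleotides scored in all 4 files, the median log2 ratio was -1.83 in the in vitro files and -1.30 in the in vivo files. The ratio lay on the same side of 0 for 848 of them (90.5%), and Spearman's rho between the ratios was 0.938 across these transcripts. The weakest accord was at 5000 nt and over, where 66.7% lay on the same side (n = 84) and the medians were -0.97 in vitro and -0.09 in vivo. ENSMUST00000083888 had a log2 ratio of 8.39 in vitro and ENSMUST00000192045 one of -4.35, so these extremes recurred in the in vitro files. How the abundance was computed is not given, nor whether the in vivo and in vitro values of a fraction share a solvent control library.

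Over the nucleotides shared by both in vivo files, the chromatin copy of a transcript was more often the more reactive one. The mean score was higher in chromatin for 973 transcripts, 63.6% (61.1% to 66.0%), and higher in cytoplasm for 557. The median difference was 0.0210 (0.0172 to 0.0236) on the scale from 0 to 1, with medians of the transcript means of 0.231 in chromatin and 0.208 in cytoplasm. Single transcripts ranged from -0.315 to 0.383. A difference of at least 0.1 was reached by 125 transcripts toward chromatin (8.17%) and 90 toward cytoplasm (5.88%), and a difference of at least 0.2 by 22 and 12. The sign was the same in odd and in even nucleotides for 1409 transcripts (92.1%), a check within the files that is no replicate.

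The lean toward chromatin depended on how the scores were read. When scores were replaced by their ranks within each file, 51.4% of transcripts were higher in chromatin. When each file's mean was taken over all nucleotides scored in it, shared or not, 51.1% were. The nucleotides differed in kind: a score of exactly 0 stood at 14.4% of shared nucleotides in chromatin and 29.0% in cytoplasm. Nucleotides at 0 in cytoplasm alone made up 20.01% of all shared ones, those at 0 in chromatin alone 5.35% and those at 0 in both 9.01%. At the top of the scale the files were closer, with a score of 1 at 3.72% in chromatin and 3.94% in cytoplasm. Over nucleotides above 0 in both files, 62.8% of 1245 transcripts were higher in chromatin and the median difference was 0.0205. This reading picks nucleotides by their score, and the part of the zeros in the transcript difference was not tested.

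A change from one extreme to the other was rare. A score of at least 0.5 in both files was found at 8.88% of shared nucleotides, in chromatin alone at 7.96% and in cytoplasm alone at 5.93%. Nucleotides at 0.5 or more in chromatin and exactly 0 in cytoplasm numbered 10156 (0.872%). The reverse was found at 2693 (0.231%).

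Scores were also spread more evenly along the RNA in chromatin. The Gini index, which is 0 when every nucleotide has the same score and nears 1 when a few hold all of it, was higher in chromatin for only 14.8% of transcripts, with medians of 0.561 in chromatin and 0.626 in cytoplasm. Under 300 nt it was higher in chromatin for 56.6%, and at 5000 nt and over for 3.47%. In the ranks the order turned, with 63.0% higher in chromatin, so the direction of this difference rests on the scale of the scores.

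Coverage moved together with the size and the direction of the difference. The transcripts were put in 4 classes of like size by the share of their length scored in chromatin. In the class with the least scored (1.18% to 14.0%), 39.4% were more reactive in chromatin. The next classes, up to 34.8% and 70.9% of the length, had 59.4% and 73.0%, and the class with the most (71.0% to 99.4%) had 82.5%. Transcripts just inside the rule, with 100 to under 150 shared nucleotides, were higher in chromatin in 41.9% of cases (n = 277), with a median difference of -0.00635. Those just outside it, with 50 to 99, were so in 47.1% (n = 611), with a median difference of -0.00416. The part of coverage in the result was not tested; among the 389 transcripts scored over at least 70% of their length in chromatin the share was 82.8% and the median difference 0.0366.

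Among transcripts of at least 300 nt, those more abundant in chromatin also leaned further toward higher chromatin scores. Among those of at least 300 nt and at least 2-fold more abundant in chromatin, 84.6% were more reactive there, with a median difference of 0.0628 (n = 130). Among those less than 2-fold more abundant in chromatin the share was 85.0% and the median difference 0.0457 (n = 200). Where the cytoplasm led by less than 2-fold the share was 55.3% (n = 396), where it led by 2- to 4-fold 56.9% (n = 313), and where it led by 4-fold or more 63.6% (n = 415). The share of nucleotides at 0 in cytoplasm changed along the same order, from a median of 40.9% in the chromatin-rich class to 12.04% in the most cytoplasmic one, and its part in the result was not tested. In this length range the lean of the chromatin-rich transcripts stood in refolded RNA as well. At nucleotides scored in all 4 files of the 2-fold class, 73.6% (59.7% to 84.7%) of 53 transcripts were higher in chromatin both in vivo and refolded, with median differences of 0.0526 and 0.0151. Where chromatin led by less than 2-fold, 88.7% of 106 were so in vivo and 69.8% refolded. With transcripts under 300 nt included, 68.9% of the 2-fold class were more reactive in chromatin in vivo (median difference 0.0360, n = 193). At nucleotides in all 4 files that class had 53.2% in vivo and 61.3% refolded (n = 111). Of transcripts under 300 nt alone, 42.1% were more reactive in chromatin in vivo (median difference -0.00288, n = 76).

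Over all transcripts the excess in chromatin was larger in living cells than in the refolded RNA, which showed none in the main setting. In 937 transcripts with at least 100 nucleotides scored in all 4 files, the mean score was higher in chromatin for 68.8% (65.8% to 71.8%) in vivo and for 48.6% (45.3% to 51.8%) after refolding, at the same nucleotides. The median differences were 0.0233 and -0.00101. The in vivo difference exceeded the refolded one in 73.6% (70.7% to 76.4%) of transcripts, by a median of 0.0235 (0.0199 to 0.0266). In ranks within the file, 17.5% of the refolded differences were toward chromatin and the in vivo difference stood 0.0496 above the refolded one in the median. At nucleotides above 0 in all 4 files, 58.0% (54.2% to 61.8%) of the refolded differences were toward chromatin (n = 672) and the median gap between the conditions was 0.0158. Over all transcripts the in vivo difference was thus the larger under each of these readings, while the level of the refolded one moved with the setting. In some classes the interval of this gap spanned 0. Under 300 nt its median was 0.00153 (-0.0112 to 0.00708, n = 70). In the 2-fold chromatin-rich class of all lengths it was 0.00596 (-0.00235 to 0.0109, n = 111). In the class with the least of its length scored in chromatin it was 0.00104 (-0.0118 to 0.017, n = 55). The interval lay above 0 in the other classes of length, abundance and coverage.

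Some classes leaned toward chromatin after refolding too. At 5000 nt and over, 64.3% (53.1% to 74.4%) of 84 transcripts were higher in chromatin refolded and 78.6% in vivo. In the class with the most of its length scored in chromatin, 64.1% (58.6% to 69.3%) of 326 were so refolded and 80.1% in vivo. From 2000 to under 5000 nt the refolded share was 40.1% (n = 274), so the refolded RNA did not lean one way at all lengths.

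The spread was narrower in the refolded files as well. A difference of at least 0.05 in either direction was found for 34.9% of transcripts in vivo and for 11.3% refolded, and the interquartile range went from 0.0598 to 0.0343. At least 0.1 toward chromatin were 78 transcripts in vivo (8.32%) and 3 refolded (0.32%). Toward cytoplasm there were 26 in vivo (2.77%) and 9 refolded (0.961%). The medians of the transcript means were 0.239 in chromatin and 0.214 in cytoplasm in vivo, and 0.173 and 0.175 refolded. On the deposited scale both fractions were thus lower in the refolded files, and their medians lay closer together. The reason was not tested. Of the 937, 358 were higher in chromatin under both conditions, 287 in vivo only, 97 refolded only and 195 under neither.

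**Figure D2:**
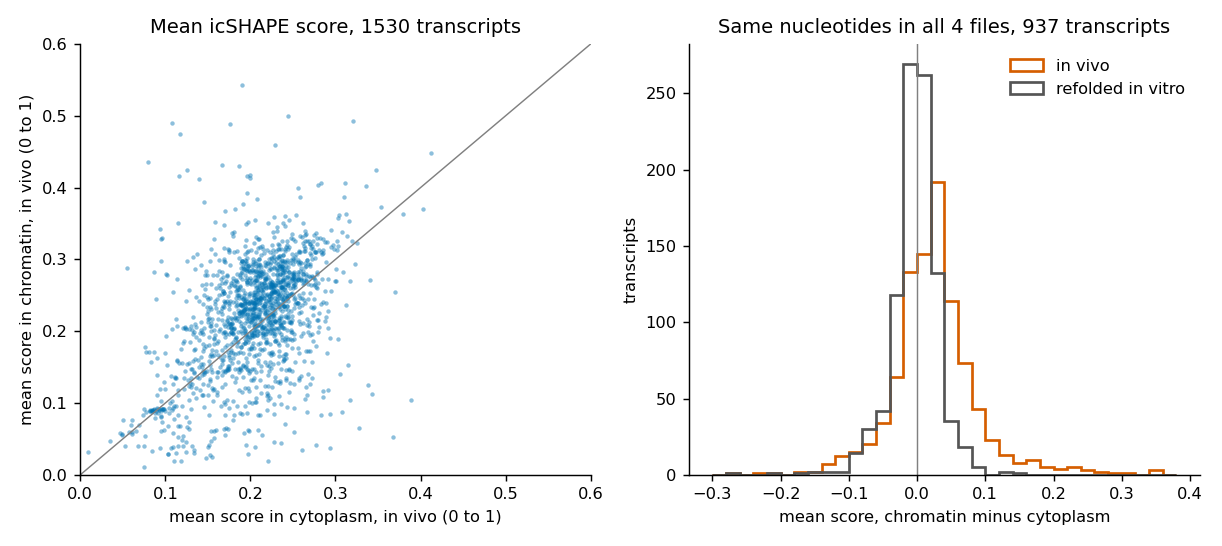
Left, mean score of each of the 1530 transcripts in chromatin against cytoplasm, in vivo, with the line of equal values. Right, counts of 937 transcripts by their chromatin minus cytoplasm difference at the same nucleotides, in vivo and refolded; the in vivo counts lie to the right of 0 more often (68.8% against 48.6%) and spread more widely.

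The pattern of reactive and unreactive nucleotides within a transcript was largely kept between the fractions. Pearson's r across the shared nucleotides had a median of 0.733 and ranged from 0.155 to 0.990 over the 1530 transcripts. It was below 0.5 for 120 and at least 0.9 for 138. By length the median fell from 0.899 under 300 nt through 0.832, 0.774 and 0.680 to 0.607 at 5000 nt and over. Across transcripts r ran with abundance in cytoplasm (Spearman's rho 0.713) and less with abundance in chromatin (0.423). Shallow profiles are noisier, so a low r in a rare transcript cannot be told apart from a difference in structure.

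At the nucleotides scored in all 4 files the fractions resembled each other most in vivo. The median r between chromatin and cytoplasm was 0.782 in vivo and 0.658 refolded. Between in vivo and refolded RNA it was 0.569 in chromatin and 0.671 in cytoplasm.

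The nucleoplasm did not sit between the fractions in its mean score. At the nucleotides scored in all 3 in vivo files of 1527 transcripts, the medians of the transcript means were 0.231 in chromatin, 0.194 in nucleoplasm and 0.208 in cytoplasm. Nucleoplasm was the lowest of the 3 for 833 transcripts, between the other fractions for 610 and the highest for 84. These values share their libraries with the comparison above.

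The difference between chromatin and cytoplasm changed along the transcript. Each transcript was divided into 3 parts of equal length, and 816 had at least 30 shared nucleotides in both the 5′ and the 3′ part. In the 5′ part the medians were 0.220 in chromatin and 0.227 in cytoplasm, and 45.6% of transcripts were higher in chromatin. In the middle part they were 0.246 and 0.211. In the 3′ part they were 0.260 and 0.204, and 75.1% of transcripts were higher in chromatin. Over all these transcripts the chromatin medians climbed toward the 3′ end while the cytoplasm medians declined: the 3′ part exceeded the 5′ part in 64.1% of transcripts in chromatin and in 34.9% in cytoplasm. The difference moved toward chromatin from the 5′ to the 3′ part in 73.3% (70.1% to 76.3%) of transcripts, with a median shift of 0.0489 (0.0425 to 0.0569).

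Longer transcripts shifted more often. The difference moved toward chromatin in 53.3% of transcripts under 300 nt (n = 30) and in 58.3% from 300 to under 1000 nt (n = 247). From 1000 to under 2000 nt the share was 79.0% (n = 157), from 2000 to under 5000 nt 84.2% (n = 278) and at 5000 nt and over 76.9% (n = 104). The median shift was 0.0147 from 300 to under 1000 nt, 0.0752 from 2000 to under 5000 nt and 0.0911 at 5000 nt and over. The shift was therefore mainly one of transcripts beyond 1000 nt. From 300 to under 1000 nt the chromatin medians of the 3 parts were 0.219, 0.230 and 0.221, with no climb.

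A shift toward chromatin was present after refolding too, at a smaller size over all transcripts. At identical nucleotides of 631 transcripts, the difference moved toward chromatin in 72.7% in vivo, by a median of 0.0509, and in 74.5% refolded, by a median of 0.0275. The in vivo shift was the larger in 377 (59.7%), by a median of 0.0238 (0.0145 to 0.0334). Both conditions shifted toward chromatin in 362 transcripts, in vivo alone in 97, refolded alone in 108 and neither in 64. Length classes differed in this. From 300 to under 1000 nt the refolded shift was the larger, with 70.4% and a median of 0.0248 against 59.3% and 0.0150 in vivo (n = 216). Under 300 nt the refolded shift went toward cytoplasm, with 28.6% toward chromatin and a median of -0.0237 (n = 28). From 2000 to under 5000 nt the medians were 0.0838 in vivo and 0.0331 refolded (n = 201).

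Steps of 100 nt from each end of the transcripts of at least 2000 nt showed where the fractions parted. Over the first 100 scorable nucleotides the median was 0.185 in chromatin and 0.249 in cytoplasm, a median difference of -0.0644, and 21.4% of 238 transcripts were higher in chromatin. The curves met between 801 and 1000 nt, where 49.8% and then 54.3% were higher in chromatin. Over the last 100 scorable nucleotides the median was 0.305 in chromatin and 0.199 in cytoplasm, a median difference of 0.0916, and 81.8% of 275 transcripts were higher in chromatin. From 901 to 1000 nt before the 3′ end the difference was still 0.0598. The cytoplasm curve was almost flat over the last 1000 nt, at 0.198 to 0.208, and the chromatin curve went from 0.270 to 0.305. Refolded, the differences were -0.0486 at the 5′ end and 0.0402 at the 3′ end.

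The 5′ deficit of chromatin was smaller in well-covered transcripts, and the excess over the last 100 nt was about as large. Restricted to transcripts scored over at least 70% of their length in chromatin, the first 100 scorable nucleotides differed by -0.0322 (n = 74) and the next 100 by 0.00636 (n = 71). From 201 to 300 nt on, chromatin was higher, with 66.7% of 75 transcripts. The last 100 scorable nucleotides differed by 0.0884, with 85.5% of 83 transcripts higher in chromatin. Over all lengths, the 5′ part was higher in chromatin for 67.5% of the 305 such transcripts and the shift toward the 3′ end was found in 62.6%, with a median of 0.0216. Their chromatin medians were flat along the transcript, at 0.263, 0.259 and 0.260 in the 3 parts, and the 3′ part exceeded the 5′ part in 52.5%; in cytoplasm it did so in 30.5%. The climb of the chromatin scores was thus not seen in these transcripts as a whole, although at 5000 nt and over 77.8% of 27 rose. How far the 5′ values come from where the chromatin file was scored was not tested.

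**Figure D3:**
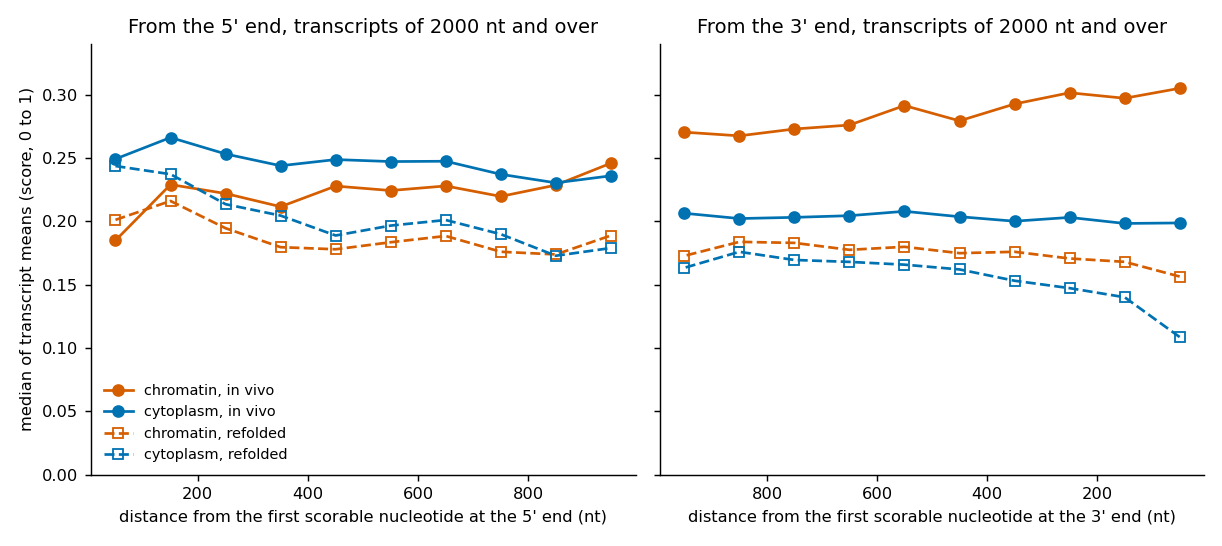
Median of transcript mean scores in 100-nt steps from the 5′ end (left) and the 3′ end (right) of transcripts of at least 2000 nt, chromatin and cytoplasm, in vivo (filled circles, 200 to 275 transcripts a step) and refolded (open squares, the 138 to 201 transcripts also scored in all 4 files). In vivo the curves meet near 900 nt from the 5′ end, and at the 3′ end chromatin stands at 0.305 and cytoplasm at 0.199.

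Against the nucleoplasm the difference moved the same way over all transcripts. From the 5′ to the 3′ part, chromatin rose relative to nucleoplasm in 67.2% of 810 transcripts, by a median of 0.0335. From 300 to under 1000 nt the share was 47.5% (41.1% to 54.0%) and the median -0.00305 (n = 244). Over all transcripts again, the other step was alike. Nucleoplasm rose relative to cytoplasm in 70.1%, by a median of 0.0172. These values again share libraries with each other and with the main comparison, and are given side by side only.

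Local differences were read in windows of 20 nt with at least 15 shared nucleotides, of which the transcripts held 53921. A window mean was at least 0.2 higher in chromatin in 3083 windows (5.72%), spread over 532 transcripts, and at least 0.2 higher in cytoplasm in 729 (1.35%), over 341 transcripts. With each file centred on its own mean over the shared nucleotides, which differed by 0.0371, the counts were 1665 and 1379. Centring takes this difference from every window and so moves the counts toward balance by construction; it does not show where the excess comes from. In refolded RNA the same threshold was passed by 0.902% of 40132 windows toward chromatin and by 0.929% toward cytoplasm.

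The windows were unevenly shared out. Only chromatin-higher windows were found in 390 transcripts, only cytoplasm-higher ones in 199, both kinds in 142 and neither in 799. A single transcript held as many as 93 chromatin-higher windows. The share of chromatin-higher windows rose with length from 1.08% under 300 nt to 7.55% at 5000 nt and over. Cytoplasm-higher windows were most frequent from 1000 to under 2000 nt, at 2.50%, and made up 0.848% at 5000 nt and over.

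Position along the transcript separated the kinds of window. In transcripts of at least 2000 nt, split into 10 equal segments, 2.47% of windows in the 5′-most segment were chromatin-higher, and the share climbed to 10.4% in segment 9 and 18.3% in segment 10. Cytoplasm-higher windows made up 3.80% of the 5′-most segment, 0.347% of segment 5 and 1.25% of the last. Cytoplasm-higher windows of these transcripts lay in the 5′ part of the 3 equal parts in 57.1% of cases and chromatin-higher ones in the 3′ part in 56.6%.

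**Figure D4:**
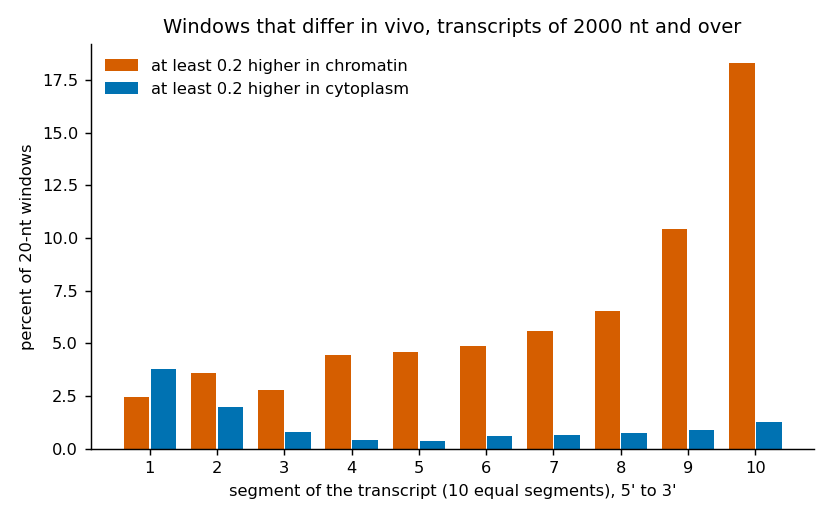
Percent of 20-nt windows in each of 10 equal segments of the length, 5′ to 3′, that were at least 0.2 higher in chromatin or at least 0.2 higher in cytoplasm, for transcripts of at least 2000 nt. Chromatin-higher windows go from 2.47% in the 5′-most segment to 18.3% in the last, and cytoplasm-higher windows are most frequent, at 3.80%, in the 5′-most.

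A full switch between a closed and an open window was uncommon. Closed here means a window mean below 0.1 and open one of at least 0.4. Closed in both fractions were 2932 windows and open in both 1901, whereas 47 were closed in cytoplasm and open in chromatin and 48 the reverse. Chromatin had 7073 open windows and cytoplasm 3140. Chromatin-higher windows had medians of 0.455 in chromatin and 0.194 in cytoplasm, and cytoplasm-higher ones 0.126 and 0.396, so the typical local difference joined a middle score to a low one.

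Refolded scores of the differing windows leaned the same way, but few passed the threshold again. In chromatin-higher windows with refolded scores, the refolded medians were 0.198 in chromatin and 0.143 in cytoplasm, and 76.0% of them were higher in chromatin, where 55.5% of all 40132 refolded windows were. In cytoplasm-higher windows the refolded medians were 0.214 in chromatin and 0.284 in cytoplasm, and 32.4% were higher in chromatin. The same threshold in the same direction was passed when refolded by 3.22% of chromatin-higher windows (66 of 2048) and by 18.4% of cytoplasm-higher ones (91 of 494). The windows were picked for their in vivo difference. The series lists a solvent control library for each fraction and no separate one for refolded RNA. How it was used is not given, but if used, the in vivo and refolded scores of a fraction share it. The refolded values may therefore not be independent of that choice, and what makes them lean the same way was not tested. The same limit bears on the differences and shifts set side by side in vivo and refolded above.

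The 2 highest and the 2 lowest differences in mean score, among transcripts with at least 200 shared nucleotides and the same sign in odd and even nucleotides, show what such differences look like. ENSMUST00000184333 (4034 nt) had a mean of 0.490 in chromatin, 0.268 in nucleoplasm and 0.108 in cytoplasm over 307 shared nucleotides between positions 1511 and 2003. All of its 13 windows were higher in chromatin, by 0.184 to 0.592. Its profile kept its shape between chromatin and cytoplasm, with an r of 0.755, so peaks and troughs lay at the same places at a different height.

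ENSMUST00000184450 (3329 nt) had a mean of 0.475 in chromatin, 0.269 in nucleoplasm and 0.117 in cytoplasm over 336 shared nucleotides, and all 15 windows were at least 0.2 higher in chromatin. Refolded, the same nucleotides averaged 0.159 in chromatin and 0.225 in cytoplasm, so the order was the opposite. These transcripts resemble each other: slid by 1140 nt, their scores correlated at 0.826 in chromatin over 321 nucleotides and at 0.815 in cytoplasm over 767. They may share sequence and are best read as a single case. Both were scored over a small share of their length in chromatin, 14.0% and 20.8%, and were listed at low abundance, at 13.1 and 14.6 in chromatin against 17.9 and 23.5 in cytoplasm.

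ENSMUST00000045376 (1781 nt) was one of the 2 lowest. Its mean was 0.0419 in chromatin, 0.208 in nucleoplasm and 0.277 in cytoplasm over 452 shared nucleotides, and all 21 windows were higher in cytoplasm, with differences of -0.445 to -0.0979. Refolded, the means at the same nucleotides were 0.170 and 0.230. At these nucleotides chromatin was thus the lowest of the 3 in vivo fractions and lower in vivo than refolded. The chromatin file scored 25.4% of this transcript, and the shared nucleotides lay between positions 40 and 758.

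ENSMUST00000021135 (12106 nt) had a mean of 0.105 in chromatin, 0.190 in nucleoplasm and 0.389 in cytoplasm over 215 shared nucleotides. Most of the difference lay in a short stretch, where the window from 6341 to 6360 averaged 0.249 in chromatin and 0.879 in cytoplasm. The chromatin file scored only 2.45% of this transcript although it listed it at 149.9, above 17.8 in cytoplasm. Where along the transcript the reads behind that abundance lie is not known.

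**Figure D5:**
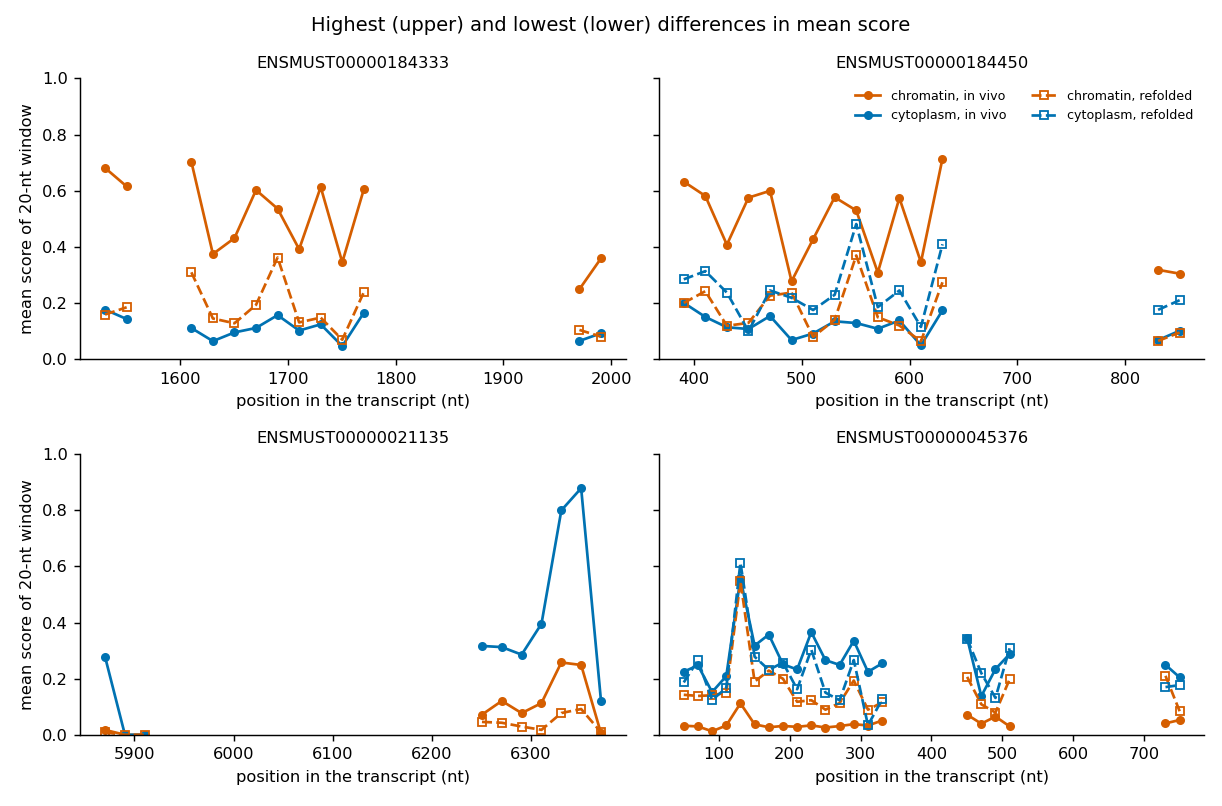
Mean score of 20-nt windows along the 2 transcripts with the highest (upper panels) and the 2 with the lowest (lower panels) difference in mean score among those with at least 200 shared nucleotides, in chromatin and cytoplasm, in vivo (filled circles) and refolded (open squares, where scored), with lines broken where windows were not scored. In the upper panels chromatin in vivo lies above cytoplasm in every window, and in the lower panels at or below it.

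The widest single windows reached from one end of the scale nearly to the other. The highest averaged 0.837 in chromatin and 0.102 in cytoplasm, and the next from another transcript 0.908 and 0.264. In the latter, the only one of these windows with refolded scores, the refolded means were 0.313 and 0.160, on the same side. The lowest averaged 0.0742 in chromatin and 0.804 in cytoplasm.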

How the data were processed

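The icSHAPE files deposited by the authors list 1 transcript per line with its length, an abundance signal of unstated unit, and a reactivity score for each nucleotide, a fraction from 0 to 1 or a missing value. No score was given to the first 6 and last 30 nucleotides. Bowtie2, UMI-tools and the build mm10 appear in the submitters' processing notes, without versions. The scoring program, the use of the solvent control and any pooling of replicates are not given in the labels or headers. In the nucleoplasm file 3 scores outside 0 to 1 were set to missing.

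Means, Pearson's r and Gini indices were taken over nucleotides scored in both files, and abundance ratios after a pseudocount of 1. Windows held 20 nt, with at least 15 scored. Named transcripts were the 2 highest and the 2 lowest in mean score (at least 200 shared nucleotides, same sign in odd and even nucleotides) and in abundance ratio; the widest windows are given by value only. The comparison, the rule and the gene lists were chosen with earlier results of these data known, and the gene lists could not be applied because identifiers were not paired with genes. No test was run, since each group held 1 file. Python 3.11.15, numpy 2.4.6, scipy 1.17.1, pandas 2.3.3 and matplotlib 3.10.9 were used, and the means, the windows and their calls were tested on simulated scores.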

Additional observations from a re-analysis of the deposited data

Results flagged for a closer look

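The change of the chromatin minus cytoplasm difference from the 5′ to the 3′ part of a transcript had medians of opposite sign in the cell lines. In HEK293 the interval over all lengths includes 0, while those of the classes under 1000 nt lay below 0. The median shift was 0.0489 (0.0425 to 0.0569) in mES cells (816 transcripts) and -0.021 (-0.0449 to 0.00793) in HEK293 cells, where 45.2% (37.9% to 52.6%) of 186 transcripts shifted toward chromatin. Transcripts of 2000 to under 5000 nt moved the same way in both lines. Their shift was toward chromatin in 80.6% in HEK293 (median 0.0784, n = 36) and in 84.2% in mES. From 1000 to under 2000 nt the HEK293 share was 56.3% (median 0.00348, n = 32). From 300 to under 1000 nt it was 30.7% in HEK293 (n = 75) and 58.3% in mES. The medians there were -0.0554 (-0.0873 to -0.0228) and 0.0147. Under 300 nt it was 10.7% in HEK293 (median -0.0967, -0.101 to -0.0524, n = 28) and 53.3% in mES. With 1 file a side in each line the difference was not tested, and cell line, species, rRNA removal kit and sequencer cannot be told apart.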

How the results depend on the processing

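Each group held 1 file, so no replicate could be left out. No paired analysis was possible because each group held a single sample and no test was made. The share of transcripts with the higher mean in chromatin and the median difference were 51.4% and 0.00284 in ranks within the file, 72.5% and 0.0284 with at least 200 shared nucleotides, 69.6% and 0.0337 where abundance lay within 1.5 times, 69.7% and 0.0265 without the first and last 100 scorable nucleotides, 51.1% and 0.00139 over all nucleotides scored in each file, and 82.8% and 0.0366 with at least 70% of the length scored in chromatin; the share was 68.8% at nucleotides scored in all 4 files. The refolded share and the median of in vivo minus refolded differences were 17.5% and 0.0496 in ranks, 58.0% and 0.0158 at nucleotides above 0, and 57.0% and 0.0287 with like abundance. The median profile correlation was 0.689 in ranks, 0.691 above 0, 0.719 with at least 200 nucleotides and with 1 transcript per pattern family, 0.782 in all 4 files, 0.616 with like abundance, 0.718 without the ends and 0.794 at 70% coverage. The higher Gini index lay in chromatin for 63.0% in ranks, which reversed the order, and otherwise for 16.9% above 0, 9.60% with at least 200 nucleotides, 12.8% per pattern family, 2.47% with like abundance, 10.7% without the ends and 17.7% at 70% coverage. The median log2 abundance ratio was -0.68 with a pseudocount of 10, -1.83 in the in vitro files and -1.30 in vivo for the same transcripts. Windows higher in chromatin and in cytoplasm numbered 1087 and 221 at 40 nt, 597 and 163 at a difference of at least 0.3, and 1665 and 1379 after centring. The shift toward the 3′ end was found in 81.8% with like abundance, 78.1% without the ends and 62.6% at 70% coverage. The settings for that shift and the 70% coverage were chosen after seeing the data. The cause of these changes was not tested. The depth behind each score is unknown, so the noise of single nucleotides could not be given; low abundance in either file limits the long transcripts most.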
